A study of Rattus norvegicus with 12 samples.

Results

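The comparison described here is that of the oxytocin receptor agonist RO6958375 with its vehicle in rats whose medial prefrontal cortex (mPFC) had been chronically activated. It was made on 8 of the 12 libraries of the series, chosen by their labels: 4 libraries of chronic prefrontal activation followed by RO6958375 (CPA+RO) and 4 of chronic prefrontal activation followed by vehicle (CPA+veh), over all genes. All were adult male Sprague Dawley rats, an outbred strain. Both groups carried hM3Dq, an excitatory receptor designed from a muscarinic receptor, fused to mCherry and delivered with an AAV8 virus under the mCaMKIIa promoter, which is active mainly in excitatory neurons. Both drank its ligand CNO at 2 mg/kg for 10 days and were then injected subcutaneously each day for 7 days, with 0.07 mg/kg RO6958375 or with vehicle. The 4 remaining libraries (control+veh) came from rats with a virus for the fluorophore alone that received the same CNO and vehicle; they entered the shared estimate of spread, and their levels are given for orientation. A subset of rats also carried a retrograde virus for EGFP, and which libraries came from them is not given in the sources used here. There was no group that received RO6958375 without hM3Dq, so the agonist was seen only after activation.

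Oxytocin is a peptide made by hypothalamic neurons that also project to the cortex. Its receptor OXTR couples mainly to Gq proteins, which act through phospholipase C, calcium and protein kinase C, and from there on kinases of the ERK pathway and on transcription factors such as CREB and MEF2. In the cortex the receptor is found on interneurons and on pyramidal cells, and oxytocin is best known there for its action on social behavior. RO6958375 is a peptide agonist of this receptor. RNA was taken from mPFC tissue dissected from brain slices after electrophysiological recordings. By the methods of the study these recordings followed the 7 days of injections and were spread over several days. The levels therefore do not show the response soon after a dose. Each level is an average over all cells of the tissue. Fewer cells of a type cannot be told apart from less RNA per cell.

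Total counts per library ranged from 64993543 to 79006972 over the 8 libraries, with medians of 68777850 in CPA+veh and 72187841 in CPA+RO. The tissue carried a marker of cortex: Slc17a7, the vesicular glutamate transporter of cortical excitatory neurons, was at 1293 to 1496 CPM (counts scaled to a common library size with TMM, a factor for library composition) in the 8 libraries. Choroid plexus markers summed to 14.4 to 21.4 CPM in CPA+veh and 16.7 to 20.6 CPM in CPA+RO. Of the 8 libraries, CPA+veh replicates 1 and 2 stood apart from the others, though not in the same way. On the first principal component of the 8 libraries (20.8% of the variance) they were at 16.5 and 48.5, whereas the other CPA+veh libraries were at -7.56 and -15.7 and the CPA+RO libraries between -16.5 and -5. On the second (15.7%) they lay at opposite ends, at 44.8 and -20.1, with the others between -11.1 and 1.31. In the same rats the deviation of a gene from its mean over libraries decreased with the length of the gene (Spearman's rho across genes -0.192 and -0.39). It was 0.0785 and 0.205 in CPA+veh replicates 3 and 4 and 0.000773 to 0.152 in CPA+RO. Control+veh replicate 1, at -0.194, was like CPA+veh replicate 1 in this, so the trend was not particular to these 2 rats. The CPA+RO rats were more alike than the CPA+veh rats: the median SD of log2 CPM was 0.124 in CPA+RO and 0.19 in CPA+veh, and 69.2% of the genes had the larger SD in CPA+veh. Named differences that moved by more than 1.5 times when CPA+veh replicates 1 and 2 were left out are therefore given both ways.

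No gene differed between CPA+RO and CPA+veh after adjustment. Of the 29009 genes in the table, 19094 passed a filter on low counts and were tested with edgeR's quasi-likelihood test on all 12 libraries, and 0 (0%) had a Benjamini-Hochberg adjusted p under 0.05 (smallest adjusted p = 0.8763). At an unadjusted p under 0.05 there were 842 genes, or 4.41% of those tested, with 349 higher (1.83%) and 493 lower (2.58%) in CPA+RO. That count was 1428 when CPA+veh replicate 3 was left out and 2107 when replicate 4 was, with 0 genes called in either fit. Over all genes tested, 9922 (52%) had a log2 fold change below 0 and 9172 (48%) above. DESeq2 and limma-voom also called 0 genes, with 907 and 827 genes at an unadjusted p under 0.05. In 372 genes (1.95%) the 4 CPA+RO rats did not overlap with the 4 CPA+veh rats, 173 of them higher (0.906%) and 199 lower (1.04%). Below, a gene is called non-overlapping in this sense, and "higher" or "lower" describes the levels measured, as no gene passed the test.

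The intervals of single genes, which are not adjusted for the number of genes tested, say how closely each difference was measured. The 95% confidence interval of the log2 fold change had a median half-width of 0.251 and lay within 1 on either side of 0, a factor of 2, in 83.7% of the genes tested. It lay within 0.5 on either side in 63.3%, that is, in 97.1% of the 6365 genes with the highest counts, 82.6% of the 6364 genes in the middle and 10.2% of the 6365 genes with the lowest counts. Differences were thus measured to that precision in most well expressed genes and in few weakly expressed ones. A call needed a far smaller p than these intervals stand for. The count of 0 genes called does therefore not by itself exclude differences of that size. Estimates beyond 1 were found in 199 genes, 190 of them among the 6365 lowest and 0 among the 6365 highest.

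**Figure D1:**
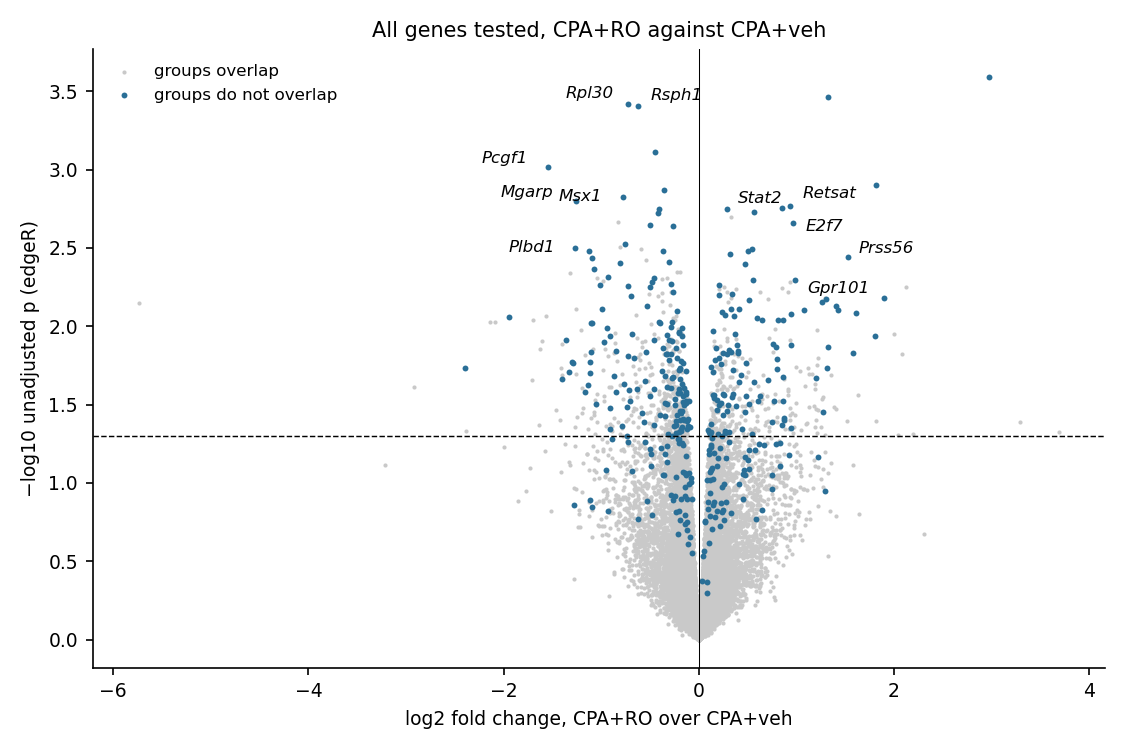
Each point is 1 of the 19094 genes tested, with the log2 fold change of CPA+RO over CPA+veh on the horizontal axis and −log10 of the unadjusted edgeR p on the vertical axis; blue points are the 372 genes whose groups do not overlap and the dashed line marks an unadjusted p of 0.05. No gene passes the adjusted threshold, and the named genes on either side reach an unadjusted edgeR p of 0.00038 (Rpl30) at best. Over all points the log2 fold change runs from -5.739 to 3.689.

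Retsat encodes retinol saturase, an oxidoreductase of the endoplasmic reticulum that acts on vitamin A alcohol. Its level was 47.9, 45.6, 49.7 and 40.0 CPM in CPA+veh replicates 1 to 4 and 107.6, 81.4, 81.9 and 78.4 CPM in CPA+RO replicates 1 to 4. Every CPA+RO rat was thus well above every CPA+veh rat, among which the standing-apart replicates 1 and 2 were not unusual. The log2 fold change was 0.93 (SE 0.24, 95% interval 0.41 to 1.45, unadjusted p = 0.0017), a 1.91-fold difference, and it was 0.96 without CPA+veh replicates 1 and 2. Retsat was the only gene called when the 2 groups were fitted alone, 1 of 18502 genes (0.0054%), with a log2 fold change of 0.93 (interval 0.70 to 1.17, edgeR adjusted p = 0.0472). It was not called in the fit of 12 libraries, in which the control+veh rats lay at 37.9, 61.4, 106.5 and 44.6 CPM. They thus covered nearly the whole range of both other groups, up to just below the highest CPA+RO rat. Over 29 alternatives its log2 fold change stayed between 0.81 and 0.99, with an edgeR adjusted p of 0.2676 without control+veh replicate 3 and 0.7452 with DESeq2.

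The sequence upstream of the Retsat start is shown because this was the only gene called in any fit. It is taken from RefSeq (rat build GRCr8, chr4:106211209-106211458, + strand), as the 250 bases that end at the annotated start, printed 5′ to 3′ with a GC box (GGGCGG) in capitals.
Retsat: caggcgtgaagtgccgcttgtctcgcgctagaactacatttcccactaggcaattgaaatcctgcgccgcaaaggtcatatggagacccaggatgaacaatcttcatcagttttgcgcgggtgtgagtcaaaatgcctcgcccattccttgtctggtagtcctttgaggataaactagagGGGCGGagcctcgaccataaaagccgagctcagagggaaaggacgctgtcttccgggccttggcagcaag
These bases were 53.6% G or C. Searched on both strands, they held 1 GGGCGG, 0 CCAAT and 0 TATAAA, letters that 30.5%, 34% and 12.9% of the 33469 upstream sequences of the same length hold. A match or its absence describes these letters only.

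The other named genes with the smallest unadjusted p on the higher side were mostly differences of less than 1.5-fold between tight groups. Stat2, a transcription factor of the interferon response, was at 35.7, 42.4, 40.8 and 41.8 CPM in CPA+veh and 43.4, 49.2, 52.5 and 51.7 CPM in CPA+RO (log2 fold change 0.29, SE 0.08, unadjusted p = 0.0018). Of the 40 genes of the interferon response and antigen presentation, 27 lay below 0 (median -0.0908) and 25 lay above 0 without CPA+veh replicates 1 and 2 (median 0.0742), and Stat2 was the only non-overlapping one. Sla, an adaptor that dampens signalling of immune receptors, was at 4.24, 4.64, 4.65 and 4.26 CPM in CPA+veh and at 6.33, 5.40, 8.71 and 5.88 CPM in CPA+RO (0.56, SE 0.15). In both genes the lowest CPA+RO rat lay above the highest CPA+veh rat. Dpyd, the first enzyme of pyrimidine breakdown, was at 7.13, 5.87, 6.35 and 6.38 CPM in CPA+veh and 8.19, 7.67, 7.96 and 8.31 CPM in CPA+RO (0.32, SE 0.09). Adamts20, a secreted metalloproteinase, was at 14.1 to 16.2 CPM in CPA+veh, while its CPA+RO rats were at 19.4, 24.3, 22.7 and 16.2 CPM (0.47, SE 0.14). CPA+RO replicate 4 of this gene all but touched the vehicle group. Otud1, an enzyme that removes ubiquitin, showed the smallest of these differences (0.21, SE 0.06), with 46.2 to 53.0 CPM in CPA+veh and 54.3 to 59.8 CPM in CPA+RO.

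Mctp1, a calcium-binding membrane protein, and Pld5, of the phospholipase D family, overlapped between the groups. Mctp1 was at 32.2 to 40.1 CPM in CPA+veh and 39.6 to 49.9 CPM in CPA+RO (log2 fold change 0.33, SE 0.09). Pld5 was at 2.81 to 4.46 CPM in CPA+veh and at 8.57, 7.83, 9.73 and 4.02 CPM in CPA+RO (0.93, SE 0.28), so that replicate 4 alone fell within the vehicle range. Among the weakly expressed genes, E2f7, a repressor of the cell cycle, was at 0.28 to 0.44 CPM in CPA+veh and 0.45 to 0.81 CPM in CPA+RO (0.96, SE 0.26). Prss56, a serine protease, was at 0.0561 to 0.126 CPM in CPA+veh and 0.229 to 0.246 CPM in CPA+RO (1.53, SE 0.44). These 2 differences rest on few reads per rat.

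The largest non-overlapping folds on the higher side, among genes with a mean of at least 1 CPM, were those of Gpr101, Retsat, Flvcr2, Col4a3, Sla and Dnah11. Gpr101, an orphan G protein-coupled receptor, was at 0.534, 0.80, 0.735 and 1.01 CPM in CPA+veh and at 1.73, 1.36, 1.87 and 1.17 CPM in CPA+RO (log2 fold change 0.99, SE 0.30). Its control+veh rats, at 0.746 to 2.09 CPM, reached across both groups. Dnah11, a dynein heavy chain of motile cilia, was at 1.21 to 1.66 CPM in CPA+veh and 1.73 to 2.45 CPM in CPA+RO (0.54, SE 0.15), with control+veh at 2.22 to 2.86 CPM. Flvcr2, a transporter found in vessels of the brain (0.64, SE 0.21), and Col4a3, a chain of basement membrane collagen (0.60, SE 0.20), were lowest in CPA+veh replicates 1 and 2. Without those replicates their log2 fold changes were 0.31 and 0.34.

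On the lower side, Rpl30, a protein of the large ribosomal subunit, had the smallest p among genes with an assigned symbol. It was at 105.8, 88.7, 64.3 and 80.0 CPM in CPA+veh and at 61.4, 60.4, 42.9 and 40.6 CPM in CPA+RO (log2 fold change -0.72, SE 0.16, unadjusted p = 0.00038). The CPA+RO rats also lay below the 4 control+veh rats, at 72.9 to 91.6 CPM. Ribosomal protein genes have many near-identical copies in the genome, so how their reads were assigned is uncertain. Rsph1, a radial spoke protein of motile cilia, was at 2.29, 2.19, 2.76 and 2.5 CPM in CPA+veh and 1.44, 1.72, 1.58 and 1.58 CPM in CPA+RO (-0.62, SE 0.14, unadjusted p = 0.00039). Its difference was -0.73 without CPA+veh replicates 1 and 2. Pcgf1, a subunit of a Polycomb repressive complex, showed the largest fold of the named genes on this side: 1.15, 1.99, 1.06 and 1.5 CPM in CPA+veh against 0.46, 0.655, 0.283 and 0.547 CPM in CPA+RO (-1.54, SE 0.37), a 2.91-fold lower level. In control+veh it was at 0.397, 0.399, 0.325 and 1.07 CPM, of which 3 rats lay at the level of the CPA+RO group and 1 at that of the CPA+veh group.

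Lxn, an inhibitor of carboxypeptidases, was at 21.8, 23.5, 19.6 and 19.1 CPM in CPA+veh and 15.7, 14.8, 17.3 and 17.8 CPM in CPA+RO (log2 fold change -0.36, SE 0.09). Msx1, a homeobox transcription factor also used as a choroid plexus marker, was at 2.58, 3.20, 2.85 and 2.10 CPM in CPA+veh and 1.70, 1.09, 2.05 and 1.43 CPM in CPA+RO (-0.78, SE 0.20). Ttr, the defining transcript of the choroid plexus, was low in both groups, with 0.954 to 1.5 CPM in CPA+veh and 0.483 to 1.42 CPM in CPA+RO, and of the 12 choroid plexus markers tested 5 lay below 0 (median 0.0825, and -0.217 without CPA+veh replicates 1 and 2). The part of that tissue in the Msx1 difference was not tested. Igfbp2, which binds insulin-like growth factors, was at 20.8 to 27.9 CPM in CPA+veh and 15.5 to 19.2 CPM in CPA+RO (-0.42, SE 0.11). Igf2, one of the ligands it binds, did not overlap either, at 54.2, 59.0, 64.9 and 89.9 CPM in CPA+veh and 53.2, 53.6, 43.7 and 52.4 CPM in CPA+RO (-0.40, SE 0.17). It belongs to the list of meningeal fibroblast and collagen genes, of which 17 of 24 were lower (median -0.127, and -0.164 without CPA+veh replicates 1 and 2). The summed level of that list was 609.7, 614.4, 509.9 and 723.2 CPM in CPA+veh and 521.9 to 595.7 CPM in CPA+RO, highest like Igf2 in CPA+veh replicate 4, and the part of that tissue in the Igf2 difference was not tested. Wnt10a, a Wnt ligand, was at 4.24 to 6.14 CPM in CPA+veh and 2.80 to 4.11 CPM in CPA+RO (-0.48, SE 0.15). The difference was as large without CPA+veh replicates 1 and 2 for Igf2 (-0.61) and Wnt10a (-0.60).

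Prim1, the catalytic subunit of DNA primase, and Sgca, a sarcoglycan of muscle and vessel walls, were among the 12 smallest p values but overlapped between groups. Prim1 was at 19.7 to 33.1 CPM in CPA+veh and 12.03 to 19.9 CPM in CPA+RO (log2 fold change -0.83, SE 0.22). Sgca was at 2.61 to 6.37 CPM in CPA+veh, highest in replicates 1 and 2, and 2.24 to 2.88 CPM in CPA+RO (-0.81, and -0.40 without those replicates). Surf1, an assembly factor of cytochrome c oxidase, behaved likewise, at 11.4, 9.52, 6.35 and 8.41 CPM in CPA+veh and 6.56, 6.11, 6.54 and 4.43 CPM in CPA+RO (-0.59, and -0.32 without them). Mmadhc, which sorts vitamin B12 within the cell, was lower by 0.26 on the log2 scale (SE 0.07; 28.9 to 35.4 CPM in CPA+veh, 25.0 to 27.1 CPM in CPA+RO). The 2 remaining genes of this group were weakly expressed: the mitochondrial protein Mgarp lay at 0.337 to 0.56 CPM in CPA+veh and 0.136 to 0.229 CPM in CPA+RO, and Plbd1, a phospholipase B domain protein, at 0.421 to 0.565 and 0.0863 to 0.246 CPM. The largest non-overlapping folds on this side at a mean of 1 CPM or more also included Selenbp1, a selenium-binding protein (-1.01, SE 0.31), the meiotic gene Rec114 (-0.93, SE 0.28) and the tetraspanin Tspan8 (-0.53, SE 0.17, and -0.33 without CPA+veh replicates 1 and 2).

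**Figure D2:**
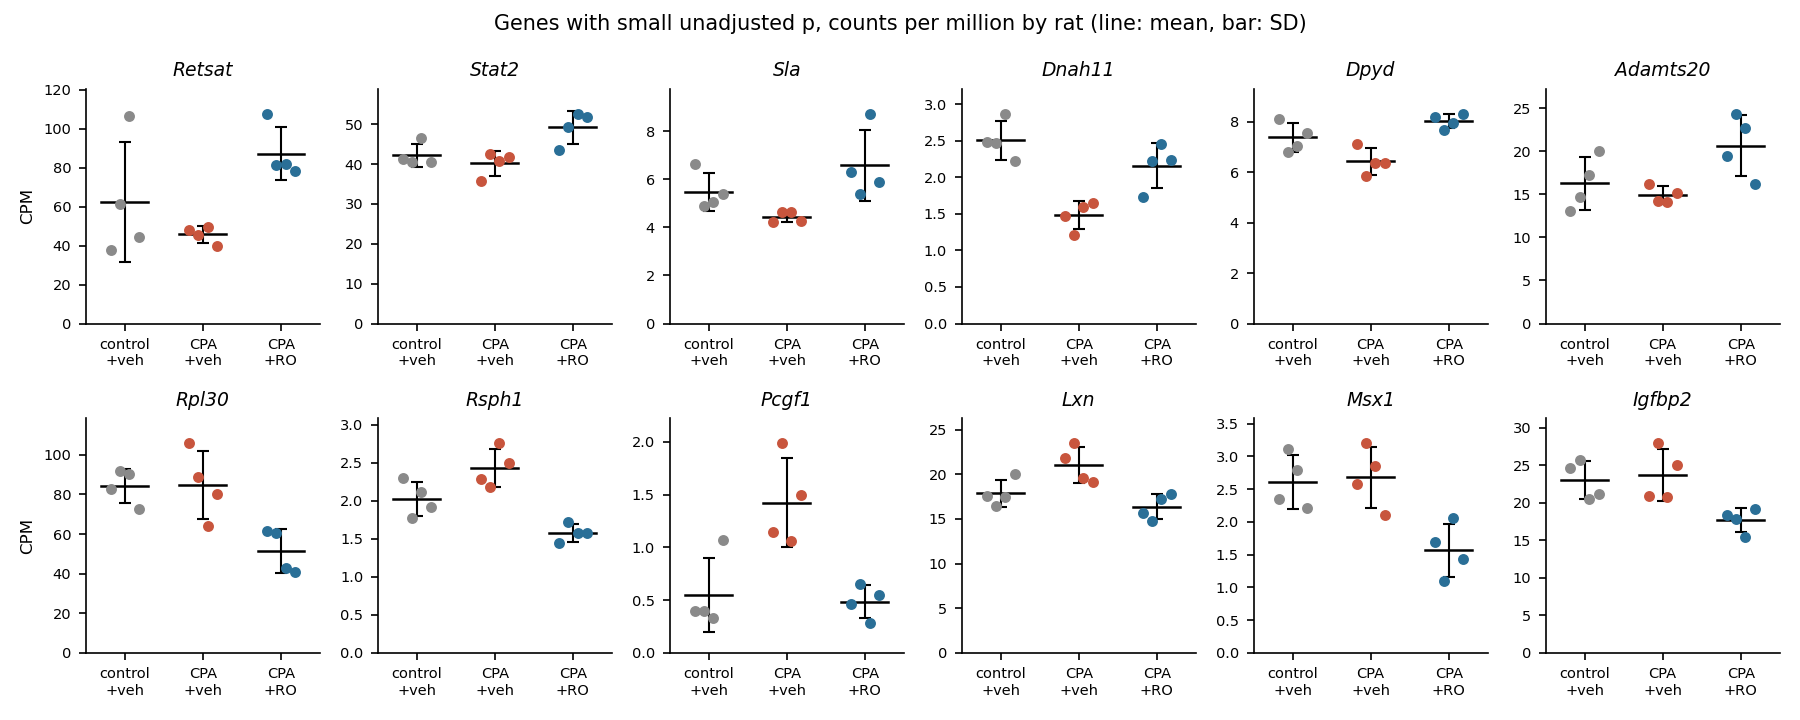
CPM in each of the 12 rats for 6 higher and 6 lower genes with a small unadjusted p (points: rats, grey control+veh, red CPA+veh, blue CPA+RO; line: mean, bar: SD of 4 rats). The 4 CPA+RO points clear the 4 CPA+veh points in all 12 genes, while in Retsat the control+veh rats span nearly the whole range of both groups, from 37.9 to 106.5 CPM.

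The receptor that RO6958375 addresses was expressed at a low level. Oxtr was at 1.79, 2.85, 2.57 and 2.20 CPM in CPA+veh and 1.87, 2.85, 3.66 and 4.10 CPM in CPA+RO, against 3.01, 2.75, 2.19 and 2.93 CPM in control+veh. CPA+RO replicates 3 and 4 lay above all vehicle rats and the others lay within their range. The difference in mean log2 CPM was 0.363 and was not larger than the spread between rats (two-sided exact permutation test, p = 0.257, where 70 assignments allow 0.0286 at the least); edgeR gave a log2 fold change of 0.41 with an interval from -0.07 to 0.88. Oxt, the gene of the peptide itself, did not pass the filter, with 14 counts summed over CPA+veh and 10 over CPA+RO.

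Of the 11 oxytocin and vasopressin genes tested, 0 passed the test, 6 had a log2 fold change above 0 and 5 below (median 0.0511, and 0.00129 without CPA+veh replicates 1 and 2), and none was non-overlapping. Among the vasopressin receptors, Avpr2 was at 1.26, 0.893, 1.19 and 1.09 CPM in CPA+veh and 1.41, 1.83, 1.22 and 1.55 CPM in CPA+RO (log2 fold change 0.44, SE 0.19, unadjusted p = 0.032), the only member of the list under 0.05. Avpr1a was at 0.471, 0.16, 0.643 and 0.841 CPM in CPA+veh and 0.633, 0.437, 0.297 and 0.471 CPM in CPA+RO (-0.20, interval -1.06 to 0.66, and -0.69 without CPA+veh replicates 1 and 2). Avpr1b was at 0.0628 to 0.213 CPM in CPA+veh and 0.115 to 0.387 CPM in CPA+RO (0.58, interval -0.47 to 1.63). A 2-fold lower level lay inside the interval of Avpr1a but outside that of Avpr1b. For a 2-fold higher level it was the reverse. The vasopressin gene Avp, at 0.0561 to 0.188 CPM in CPA+veh and 0.0273 to 0.28 CPM in CPA+RO, was measured no better (0.25, and 0.41 without those replicates).

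The enzymes that release, process or degrade these peptides were measured far more tightly. Cd38, an ectoenzyme needed for oxytocin release in mice, was at 13.2, 9.20, 8.14 and 9.20 CPM in CPA+veh and 8.42, 8.86, 9.68 and 7.76 CPM in CPA+RO (log2 fold change -0.19, interval -0.48 to 0.09, and 0.00 without CPA+veh replicates 1 and 2). Lnpep, the aminopeptidase that cleaves oxytocin, was at 18.9 to 27.1 CPM in CPA+veh and 19.1 to 26.5 CPM in CPA+RO (-0.05, interval -0.34 to 0.24, and -0.19 without those replicates). The processing enzymes had the narrowest intervals: those of Pam (-0.17 to 0.10), Pcsk2 (-0.08 to 0.18), Pcsk1 (-0.17 to 0.27) and Cpe (-0.24 to 0.06) all lay well within 0.5 on either side of 0. Without those replicates their differences lay between -0.0921 (Pcsk1) and 0.0553 (Cpe).

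**Figure D3:**
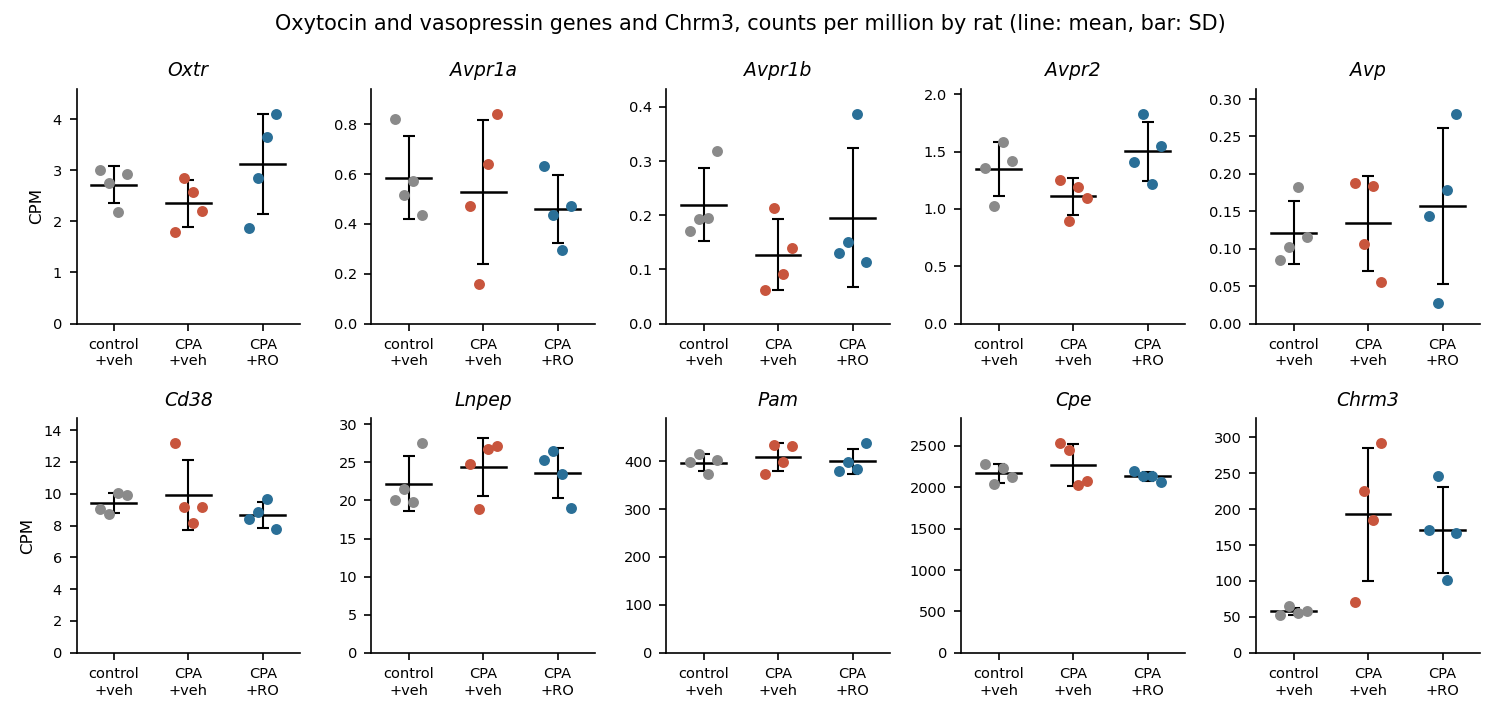
CPM in each rat for 9 oxytocin and vasopressin genes and for Chrm3 (points: rats, grey control+veh, red CPA+veh, blue CPA+RO; line: mean, bar: SD of 4 rats). The CPA+veh and CPA+RO points overlap in every panel, and Chrm3 runs from 71.1 to 291.6 CPM within CPA+veh.

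Counts at Chrm3, the muscarinic receptor gene whose human form hM3Dq was built from, varied more between rats of 1 group than between the groups. They were at 71.1, 225.0, 184.8 and 291.6 CPM in CPA+veh and 170.3, 246.6, 100.8 and 167.2 CPM in CPA+RO (log2 fold change -0.17, SE 0.32, and -0.48 without CPA+veh replicates 1 and 2), against 53.1 to 64.9 CPM in control+veh. All 8 rats with hM3Dq thus lay above the 4 rats without it, with an overlap between vehicle and agonist. The interval of the difference between the groups ran from -0.86 to 0.51, and its part in the other results was not tested.

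Genes downstream of the receptor were near their vehicle levels in this tissue, which was taken after the injections had ended. Of 35 genes of Gq transduction, 22 lay above and 13 below 0 with a median log2 fold change of 0.0274, against -0.00655 over all genes tested, and 31 had an interval within 0.5 on either side of 0. Of 38 genes of ERK, CREB and MEF2 signalling, 22 lay above and 16 below 0 (median 0.0341). These medians were 0.000897 and 0.021 without CPA+veh replicates 1 and 2.

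The 26 immediate early genes are transcription factors and effectors that neurons switch on within minutes of activity. They were split evenly, with 13 above and 13 below 0. Their response soon after a dose was not measured, as tissue was taken after the injections had ended. Klf6 was at 165.6 to 213.2 CPM in CPA+veh and 202.3 to 218.3 CPM in CPA+RO (log2 fold change 0.18, unadjusted p = 0.031), whereas Ier2 was at 41.1 to 57.4 and 37.2 to 45.2 CPM (-0.21, unadjusted p = 0.047). Without CPA+veh replicates 1 and 2 these differences were 0.07 and -0.13. Arc, a synaptic regulator of AMPA receptors, was at 230.4, 189.3, 180.2 and 186.9 CPM in CPA+veh and 199.2, 183.2, 139.1 and 122.8 CPM in CPA+RO (-0.29, interval -0.58 to 0.01, and -0.19 without those replicates). These genes varied more within CPA+RO than within CPA+veh: the level of the list, its median log2 CPM relative to control+veh, ran from -0.12 to 0.12 in CPA+RO and from -0.0303 to 0.0699 in CPA+veh. Of the 29 late activity-induced genes, 18 lay above 0 (median 0.0522, and -0.0214 without those replicates) and 0 had an unadjusted p under 0.05.

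Receptors of the main transmitters lay slightly above 0 as groups. Among ionotropic glutamate receptors and their auxiliary subunits 24 of 31 were above 0 (median log2 fold change 0.0646), among metabotropic glutamate receptors 7 of 8 (0.0972) and among GABA-A receptor subunits 14 of 18 (0.0845), where 48% of all genes tested were above 0. Gria1, an AMPA receptor subunit, was at 268.6, 229.5, 296.8 and 292.9 CPM in CPA+veh and 293.5, 294.0, 309.5 and 299.2 CPM in CPA+RO (0.14, interval -0.01 to 0.29). Grm5, the Gq-coupled glutamate receptor, was at 163.2, 132.1, 199.6 and 201.3 CPM in CPA+veh and 192.5, 195.5, 204.4 and 192.5 CPM in CPA+RO (0.17, interval -0.06 to 0.41). In both genes CPA+veh replicates 1 and 2 were the low ones, and without them the log2 fold changes were 0.02 and -0.03. The list medians were likewise -0.0162, -0.012 and -0.0691 without these replicates, with 12 of 31, 4 of 8 and 6 of 18 genes above 0. Gabrq, the theta subunit of the GABA-A receptor, did not overlap, at 6.27 to 8.19 CPM in CPA+veh and 8.89 to 10.4 CPM in CPA+RO (0.43, SE 0.17), while in control+veh it was at 7.85 to 15.8 CPM. Cacng7, an auxiliary subunit of AMPA receptors, was the only ionotropic list member lower at an unadjusted p under 0.05 (-0.17, and -0.02 without the replicates).

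Serotonin receptors held the highest median of the receptor lists, 0.158 over 12 genes, with 9 above 0 and 2 non-overlapping members, 16.7% against 1.95% of all genes tested. Htr2c, a Gq-coupled serotonin receptor, was at 58.0, 68.1, 81.8 and 82.3 CPM in CPA+veh and 87.8, 88.8, 106.7 and 85.0 CPM in CPA+RO (log2 fold change 0.34, SE 0.14, unadjusted p = 0.028). Htr2b, of the same subfamily, was at 0.188, 0.293, 0.276 and 0.281 CPM in CPA+veh and 0.431, 0.491, 0.387 and 0.509 CPM in CPA+RO (0.80, SE 0.29, unadjusted p = 0.016). Without CPA+veh replicates 1 and 2 the differences were 0.17 and 0.71, and the list median was 0.0712. By rat the list lay at 0.0181 to 0.229 in CPA+veh and 0.114 to 0.412 in CPA+RO relative to control+veh, so the groups overlapped.

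In the remaining receptor lists a few members had an unadjusted p under 0.05. Drd5, a dopamine receptor, was at 0.785, 1.09, 1.59 and 1.49 CPM in CPA+veh and 1.41, 1.39, 2.02 and 5.08 CPM in CPA+RO (log2 fold change 1.0, SE 0.37), with CPA+RO replicate 4 far above the rest. Chrna5, a nicotinic receptor subunit of deep cortical layers, was non-overlapping at 28.9, 24.4, 33.0 and 32.7 CPM in CPA+veh and 36.5, 34.2, 44.3 and 34.5 CPM in CPA+RO (0.33, SE 0.12, and 0.19 without CPA+veh replicates 1 and 2). Among interneuron markers, Ndnf, which marks neurogliaform cells of layer 1, was at 6.22, 8.63, 9.84 and 12.7 CPM in CPA+veh and 11.95, 11.9, 17.8 and 19.8 CPM in CPA+RO (0.72, SE 0.25, and 0.45 without those replicates), while 13 of the 30 markers lay above 0 and 17 below. Ntsr1, which marks corticothalamic cells of layer 6, was at 7.99 to 11.4 CPM in CPA+veh and 10.3 to 14.9 CPM in CPA+RO (0.34, SE 0.15, and 0.20 without those replicates). The layer and subclass markers as lists had medians of 0.0356 and -0.0237, and of -0.0206 and -0.0531 without them.

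Ion channels gave a similar picture to the receptors. Of 50 voltage-gated potassium channel genes, 34 lay above 0 (median log2 fold change 0.0581) and of 21 sodium channel genes 15 (0.0712), with 18 of 50 and 5 of 21 above 0 when CPA+veh replicates 1 and 2 were left out. The sensory neuron channel Scn10a was non-overlapping but weakly expressed, at 0.276 to 0.533 and 0.173 to 0.254 CPM (log2 fold change -0.91, SE 0.31). Kcnj2, an inward rectifier that holds the resting potential, was at 27.4, 23.5, 33.8 and 32.9 CPM in CPA+veh and 37.4, 42.0, 35.0 and 32.2 CPM in CPA+RO (0.32, SE 0.12, and 0.14 without CPA+veh replicates 1 and 2). Kcnip1, an auxiliary subunit of A-type channels, was at 28.8, 39.2, 26.2 and 25.3 CPM in CPA+veh and 22.8, 23.4, 21.5 and 27.9 CPM in CPA+RO (-0.32, and -0.10 without them).

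Genes of synapses lay close to 0. All 34 postsynaptic scaffold and adhesion genes had an interval within 0.5 on either side of 0, with a median of 0.0471 (-0.04 without CPA+veh replicates 1 and 2). Their most different member was Flrt3, an adhesion protein that binds latrophilins, at 28.4, 30.3, 34.2 and 38.5 CPM in CPA+veh and 41.1, 39.4, 39.2 and 38.0 CPM in CPA+RO (log2 fold change 0.26, SE 0.09, unadjusted p = 0.01), and its difference was 0.12 without those replicates, which were its low ones. Of 41 genes of synaptic vesicle release 0 had an unadjusted p under 0.05, and their median was 0.0333 (-0.0181 without the replicates).

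Genes of energy metabolism and protein synthesis lay below 0 nearly throughout. Of 64 nuclear subunits of the respiratory chain, 62 were lower in CPA+RO (median log2 fold change -0.127) and 11 of these had an unadjusted p under 0.05, or 17.2% against 2.58% of all genes tested. All 16 ATP synthase genes, 79 of 90 cytosolic ribosomal protein genes, 71 of 75 mitochondrial ribosomal protein genes and 33 of 39 proteasome genes were lower, with medians of -0.137, -0.133, -0.11 and -0.0633. Ndufb8, a complex I subunit, was at 157.2, 167.5, 133.3 and 126.7 CPM in CPA+veh and 124.9, 117.0, 133.7 and 123.3 CPM in CPA+RO (-0.23, SE 0.08). Cox8a, a complex IV subunit, was at 250.2, 230.8, 204.0 and 174.8 CPM in CPA+veh and 196.2, 176.3, 172.9 and 184.2 CPM in CPA+RO (-0.24, SE 0.09). The same pair of CPA+veh rats, replicates 1 and 2, stood above all others in both genes, and without them the differences were -0.06 and -0.05.

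Besides Rpl30, 4 members of these lists were non-overlapping. With Rpl30 the shares were 1.56% for the respiratory chain, 6.25% for ATP synthase and 1.11% for cytosolic ribosomal proteins. They were 2.67% for mitochondrial ribosomal proteins and 0% for the proteasome, against 1.95% of all genes tested. Ndufs3, of complex I, was at 86.1, 102.1, 85.2 and 84.5 CPM in CPA+veh and 83.1, 78.7, 78.9 and 80.7 CPM in CPA+RO (log2 fold change -0.16). Atp5c1, the gamma subunit of ATP synthase, was at 209.6 to 245.9 CPM in CPA+veh and 200.7 to 208.2 CPM in CPA+RO (-0.12). Mrpl13, of the mitochondrial ribosome, was at 31.0, 32.8, 25.6 and 26.6 CPM in CPA+veh and 25.1 to 25.5 CPM in CPA+RO (-0.19). These differences were -0.08, -0.04 and -0.04 without CPA+veh replicates 1 and 2. In each of these 3 genes CPA+veh replicates 3 and 4 lay just above the agonist group and replicates 1 and 2, or replicate 2 alone, far above it. Mrpl53, also of the mitochondrial ribosome, was weakly expressed, at 0.251, 0.267, 0.122 and 0.281 CPM in CPA+veh and 0.0955 to 0.119 CPM in CPA+RO (-1.14, SE 0.45, and -0.95 without those replicates), from 64 counts summed over CPA+veh and 30 over CPA+RO.

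Without CPA+veh replicates 1 and 2 the medians of these lists lay above 0, except that of the mitochondrial ribosomal proteins. The medians were 0.027 for the respiratory chain (43 of 64 genes above 0), 0.0391 for ATP synthase (11 of 16), 0.0905 for cytosolic ribosomal proteins (84 of 90), -0.00613 for mitochondrial ribosomal proteins (33 of 75) and 0.0241 for the proteasome (27 of 39). By rat, the level of the respiratory list relative to control+veh was 0.183, 0.292, 0.00358 and -0.0669 in CPA+veh replicates 1 to 4 and 0.0077, -0.0169, -0.0306 and 0.0208 in CPA+RO. That of the cytosolic ribosomal list was 0.272, 0.31, -0.098 and -0.153 in CPA+veh and 0.00418, -0.086, -0.0406 and -0.0113 in CPA+RO. The CPA+RO rats therefore lay inside the span of the CPA+veh rats, close to control+veh, with 2 vehicle rats above them and the others among or below them. Rpl30 was 1 of the 6 cytosolic ribosomal protein genes below 0 in the fit without those replicates, lower by 0.49 on the log2 scale.

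Steroid and stress genes lay below 0 more often than above, and 0 passed the test. Of 26 genes of steroid synthesis and metabolism 18 lay below 0 (median log2 fold change -0.0647, and -0.0162 without CPA+veh replicates 1 and 2). Star, which carries cholesterol into mitochondria, was weakly expressed and non-overlapping at 0.213 to 0.365 CPM in CPA+veh and 0.446 to 0.791 CPM in CPA+RO (0.87, SE 0.33). Hsd17b12, an enzyme of fatty acid elongation and steroid metabolism, was non-overlapping at 67.3 to 78.5 CPM in CPA+veh and 64.2 to 65.6 CPM in CPA+RO (-0.17, SE 0.06). Its relative Hsd17b11 was at 21.2, 19.5, 15.1 and 17.7 CPM in CPA+veh and 14.8 to 15.1 CPM in CPA+RO (-0.29, SE 0.09). Both were highest in CPA+veh replicates 1 and 2, and without them the differences were -0.07 and -0.13. Tsc22d3, which encodes the glucocorticoid-induced leucine zipper, was at 72.5, 89.1, 74.9 and 75.8 CPM in CPA+veh and 67.0, 68.5, 68.5 and 63.8 CPM in CPA+RO (-0.22, SE 0.08), and -0.17 without CPA+veh replicates 1 and 2. It was the only non-overlapping one of the 23 glucocorticoid and stress genes, of which 15 lay below 0 with a median of -0.0517, and 17 with a median of -0.0465 without those replicates. By rat this list lay at 0.0597, 0.0154, 0.0947 and 0.0561 in CPA+veh and 0.0245, 0.0148, -0.00571 and -0.0187 in CPA+RO relative to control+veh. CPA+veh replicates 1, 3 and 4 thus lay above every CPA+RO rat, and replicate 2 among them. Of 25 cholesterol synthesis genes 15 lay below 0 (median -0.027, and 0.0368 without those replicates), among them Msmo1 at 109.2 to 146.0 CPM in CPA+veh and 99.1 to 109.6 CPM in CPA+RO (-0.24, SE 0.08, and -0.09 without them).

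Markers of other cell types differed between the vehicle rats. All 20 oligodendrocyte markers were lower in CPA+RO (median log2 fold change -0.247, and -0.0104 without CPA+veh replicates 1 and 2). Of these markers 11 had an unadjusted p under 0.05, or 55% against 2.58% of all genes tested, and 0 had one without those replicates. Mbp, the myelin basic protein, was at 2220, 1487, 1078 and 1027 CPM in CPA+veh and 1129, 1154, 1053 and 1010 CPM in CPA+RO (-0.42, and 0.05 without CPA+veh replicates 1 and 2). Their summed level was 5661, 4018, 3255 and 3248 CPM in CPA+veh, 3068 to 3458 CPM in CPA+RO and 2977 to 3377 CPM in control+veh. CPA+veh replicates 1 and 2 thus held more myelin RNA than every other rat of the series, and the other 2 were level with CPA+RO. Fa2h, an enzyme of myelin lipids, was the only non-overlapping member, at 8.32, 8.13, 7.45 and 6.90 CPM in CPA+veh and 5.29 to 6.86 CPM in CPA+RO (-0.31, and -0.21 without the replicates). Of the astrocyte markers 13 of 17 were lower (median -0.12) and of the microglia markers 16 of 20 (-0.135), with medians of 0.028 and 0.0541 without those rats. S100b, a calcium-binding protein of astrocytes, was at 1462, 1292, 904.5 and 908.2 CPM in CPA+veh and 830.8 to 986.0 CPM in CPA+RO (-0.33, and 0.01 without them).

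Endothelial markers went the opposite way. Of 19 tested, 16 were higher in CPA+RO (median log2 fold change 0.184), and the list lay at -0.653, -0.535, -0.0241 and 0.0443 in CPA+veh replicates 1 to 4 and at -0.174 to 0.152 in CPA+RO, relative to control+veh. Pecam1, an adhesion molecule of vessel walls, was at 7.85, 7.11, 10.6 and 10.4 CPM in CPA+veh and 8.97 to 11.7 CPM in CPA+RO (0.22, interval -0.06 to 0.50). Ocln, a protein of tight junctions, was at 4.10, 4.29, 6.03 and 6.58 CPM in CPA+veh and 5.87 to 8.43 CPM in CPA+RO (0.41, SE 0.17). The fitted log2 fold changes were 0.00 for Pecam1 and 0.15 for Ocln without CPA+veh replicates 1 and 2, and the list median was -0.0326. Markers of motile cilia, which ependymal cells carry, pointed both ways, since Rsph1 and Cfap52 (-0.42, SE 0.14, and -0.26 without the replicates) were lower while Dnah11 and Dnah9 (0.35, SE 0.14, and 0.17) were higher, with 26 of 48 above 0. Markers of striatal projection neurons, which lie next to the mPFC, summed to 621.9 to 694.9 CPM in CPA+veh and 661.3 to 691.8 CPM in CPA+RO.

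**Figure D4:**
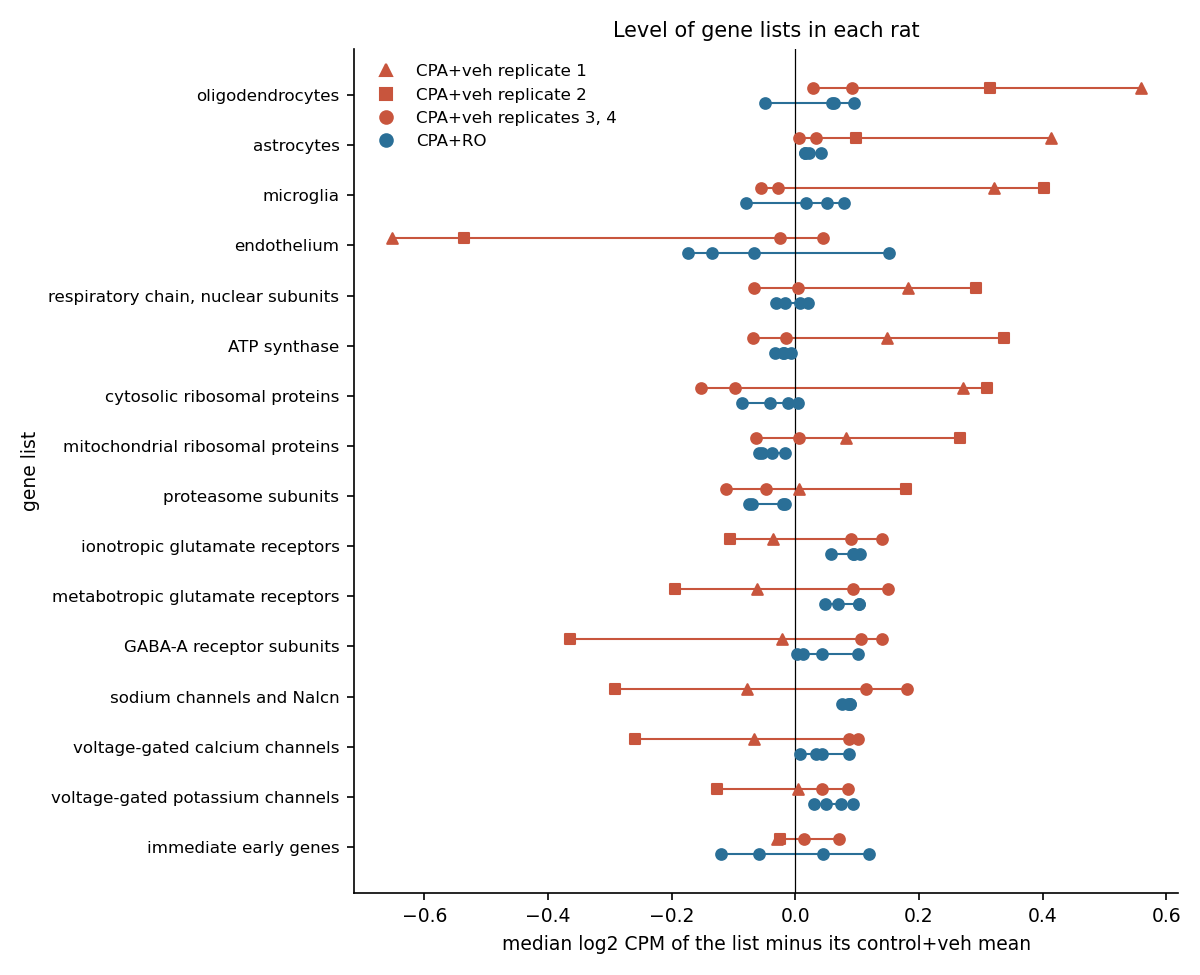
Level of 16 gene lists in each rat with hM3Dq, as the median log2 CPM of the list minus its control+veh mean (red CPA+veh, with a triangle for replicate 1 and a square for replicate 2; blue CPA+RO; lines: range of 4 rats). In all 16 lists shown, which were picked from the 48, CPA+veh replicates 1 and 2 lie on the same side of replicates 3 and 4. Of these lists the CPA+RO range is the wider one only in the immediate early genes (-0.12 to 0.12). Some lists not shown lack that order, such as Gq transduction (0.0445, -0.0824, 0.0768 and 0.0322 in CPA+veh replicates 1 to 4).

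Over the 48 lists, which cover 1315 genes tested, 21 had a median below 0 and 27 above 0, and 0 had rat levels that did not overlap between CPA+veh and CPA+RO. In 26 lists the CPA+RO range lay inside the CPA+veh range, and in 41 the CPA+veh range was the wider. When CPA+veh replicates 1 and 2 were left out, the median changed sign in 28 of the 48 lists. These rats were picked from the same values, so lists in which they differ from the rest move by construction. At the level of single genes, of the 842 genes at an unadjusted p under 0.05, 837 kept the sign of their difference and 180 were still under 0.05, in a fit that shared its 4 CPA+RO rats and 2 vehicle rats with the first. That fit called 0 genes and had 552 genes at an unadjusted p under 0.05, with 284 higher and 268 lower.

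**Figure D5:**
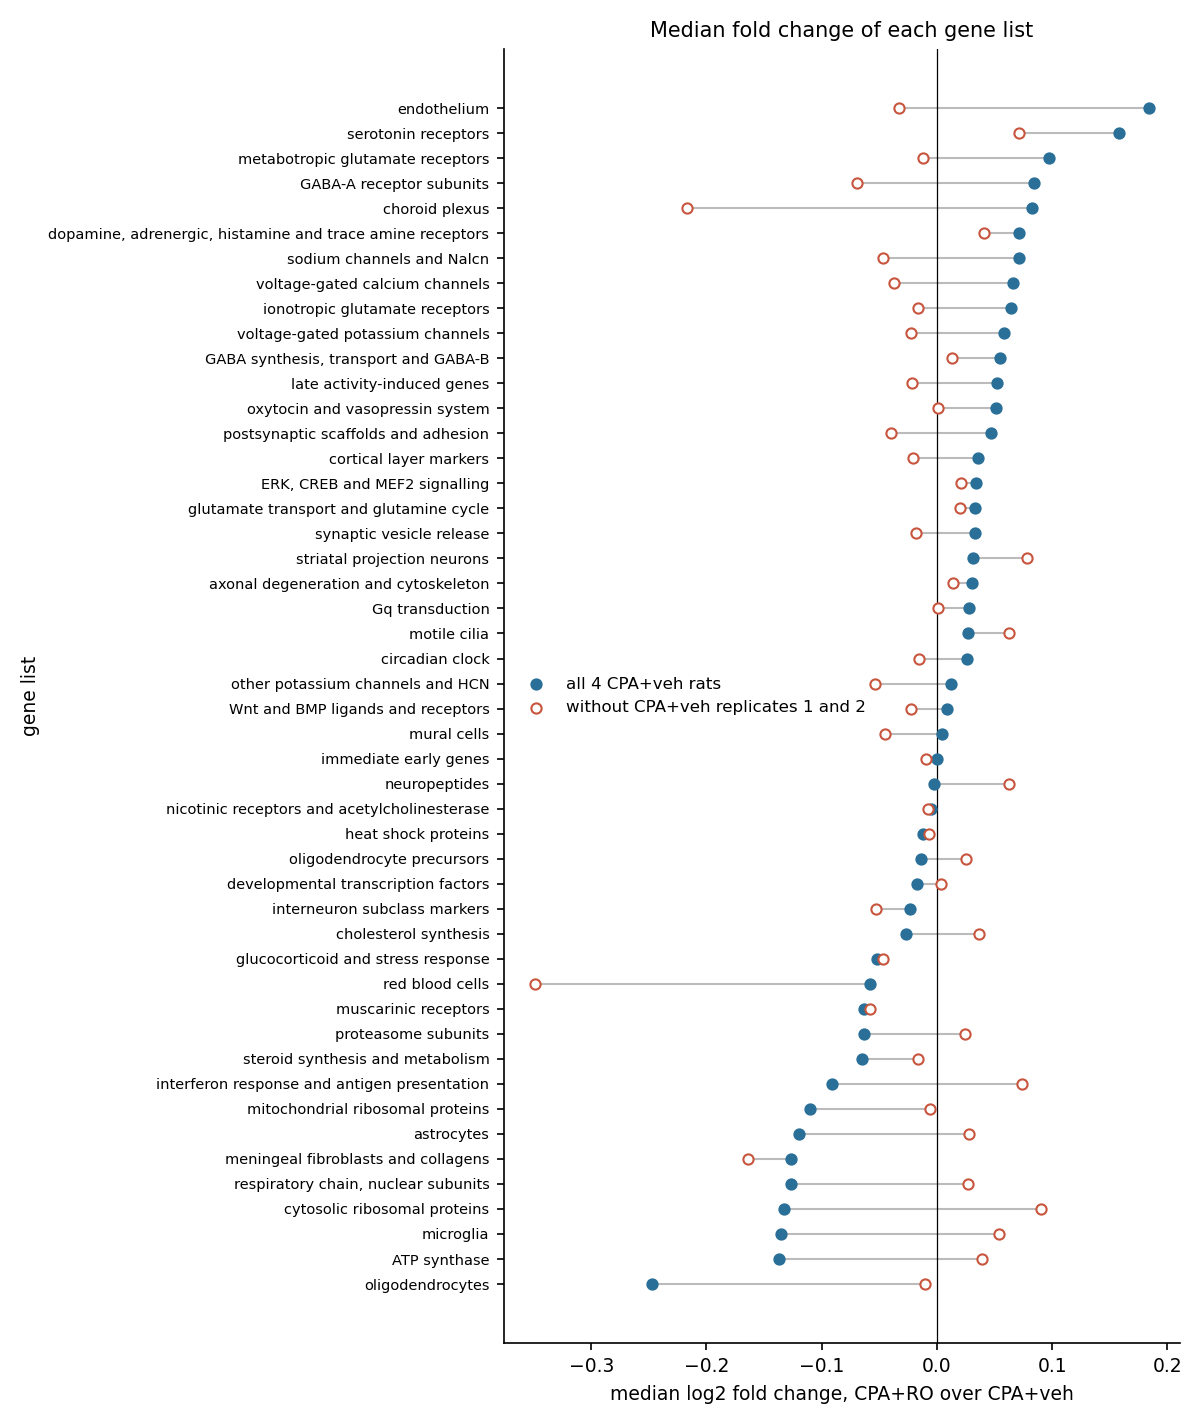
Median log2 fold change of CPA+RO over CPA+veh for each of the 48 gene lists, with all 4 CPA+veh rats (filled blue) and without CPA+veh replicates 1 and 2 (open red). The filled points run from -0.247 (oligodendrocytes) to 0.184 (endothelium), and 28 lists change sides of 0 between the points.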

How the data were processed

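Counts per gene of 12 bulk mPFC libraries (TruSeq stranded mRNA, HiSeq4000) were used as the authors deposited them. The submitters' notes name bcl2fastq, FastQC, STAR and SAMtools and build rn6 (Rnor_6.0); no source used here gives the annotation, the counter or its strand setting, so antisense and overlapping genes and near-identical copies are uncertain. Of the deposited counts from 1 to 9, 92.7% were even, as if each mate of a pair was counted, and halved counts were tried. The authors also deposited RPKM values, used for gene lengths and as an alternative. GEO's labels gave groups and replicate numbers, and nothing ties libraries to a cohort or day; where rats are not stated to be separate per library, p-values measure the spread between these samples.

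Genes were filtered with filterByExpr, scaled with TMM and tested with edgeR 4.0.16 (R 4.3.3; quasi-likelihood, 3 groups, 12 libraries), with Benjamini-Hochberg adjustment over all genes at 0.05. CPM are TMM-scaled, and log2 CPM used a prior count of 2. Fits were checked on simulated data. Named genes were those with the 12 smallest p in each direction and an assigned symbol (not LOC or similar), the 6 largest non-overlapping folds in each direction at a mean of 1 CPM or more, genes called in either fit, the oxytocin list with Chrm3, and the leading and non-overlapping members of lists. Slc17a7 and Ttr were added as tissue checks after their values were seen. Some genes that this rule named are not reported here. Members and lists were chosen with earlier results of these data known, and several lists follow themes the study chose on these samples. Of the gene IDs, 80% matched GRCr8. Alternatives used DESeq2 1.42.0 and limma 3.58.1.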

Additional observations from a re-analysis of the deposited data

Results flagged for a closer look

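In groups of 4 rats, a sample was looked at again where its gap to the nearest of the others was more than 0.829 of the range of the group, which chance gives in about 1 in 20 groups. Of 417 groups (3 groups each for the genes named and for the lists), 17 met this. In CPA+RO, replicate 1 was highest for Retsat (0.881) and lowest for Rec114 (0.935), replicate 2 was highest for Gjb6 (0.852), replicate 3 was highest for Avpr1b (0.869) and Ntsr1 (0.844) and lowest for Igf2 (0.878), and replicate 4 was lowest for Gabrq (0.987). In CPA+veh, replicate 1 was lowest for Htr2b (0.83), replicate 2 was highest for Mmadhc (0.836) and Ndufs3 (0.911), and replicate 3 was highest for Wnt10a (0.835). In control+veh, replicate 3 was highest for Stat2 (0.867) and replicate 4 for Pcgf1 (0.902) and Avpr1b (0.831). Among the lists, cortical layer markers were lowest in CPA+RO replicate 4 (0.864), and oligodendrocyte precursors were highest in CPA+veh replicate 1 (0.847) and lowest in CPA+RO replicate 2 (0.853).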

How the results depend on the processing

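The count of 0 genes at an adjusted p under 0.05 was unchanged under 29 of 30 alternatives, and was 1 (Retsat, log2 fold change 0.93) when the 2 groups were fitted alone. Without each library in turn it stayed at 0, and the 842 genes at an unadjusted p under 0.05 became 610 to 2107. The 372 non-overlapping genes became 728 to 1443 without a CPA+veh or CPA+RO library, where fewer rats overlap less by construction. They became 385 to 387 without a control+veh library, where the same 8 rats were compared. In all these counts, unlike in the 372, library sizes were taken over the filtered genes only, and the filter was set anew. The highest counts at an unadjusted p were those without CPA+veh replicate 4 (2107) and replicate 3 (1428). Without CPA+veh replicates 1 and 2 together there were 552 genes at an unadjusted p under 0.05 and 2159 non-overlapping genes. The difference of Oxtr ran from 0.213 to 0.586 without each of the 8 libraries in turn, and no alternative brought it past the threshold. For the alternative without CPA+veh replicates 1 and 2 together this says nothing, as too few assignments remain for the permutation test to pass. The share of higher against lower genes at an unadjusted p was 396 against 406 with a correction for gene length and 284 against 268 without CPA+veh replicates 1 and 2, against 349 and 493.

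Replicate numbers did not pair the libraries (correlation of same-numbered deviations -0.0431 to 0.0235). With a replicate block edgeR called 0 genes, with 902 at an unadjusted p under 0.05, and 844 with a length correction as well, of which 453 were higher and 391 lower.

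Of 2612 values of 91 named genes under the alternatives, 19 changed sign. With limma-voom Avpr1a was at 0.00553, and with sample quality weights Avp was at -0.06. Without CPA+veh replicate 4, Avpr1a was at 0.127, Avp at -0.00161, Lnpep at 0.0123 and Chrm3 at 0.10; without CPA+veh replicate 3, Lnpep was at 0.000503; and without CPA+veh replicate 2, Pcsk1 was at -0.0391. Without CPA+RO replicate 4, Avp was at -0.195 and Lnpep at 0.0431, and without CPA+RO replicate 3 Chrm3 was at 0.0112. Without CPA+veh replicates 1 and 2, Cd38 was at 0.00129, Pcsk1 at -0.0921, Pcsk2 at -0.0269, Cpe at 0.0553, Grm5 at -0.0304, Mbp at 0.0461, S100b at 0.00515 and Pecam1 at -0.00379. Over all 12 fits without 1 library, Avpr1a ran from -0.505 to 0.127, Avp from -0.195 to 0.601, Lnpep from -0.151 to 0.0431, Pcsk1 from -0.0391 to 0.12 and Chrm3 from -0.449 to 0.10. The cause was not tested. The 95% interval lay within 0.5 on either side of 0 in 97.1% of the 6365 genes with the highest counts and in 10.2% of the 6365 with the lowest.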
